A study of Mus musculus with 5 samples.

Results

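The transcripts of 7 small leucine-rich proteoglycans (SLRPs) were followed in spatial transcriptomes of the neonatal mouse heart. Decorin (Dcn), biglycan (Bgn), lumican (Lum), osteoglycin (Ogn), fibromodulin (Fmod), prolargin (Prelp) and asporin (Aspn) were taken by gene symbol, and all 7 were among the 13711 genes listed in all 5 expression tables. The rule itself used symbols and no measured value. SLRPs are secreted matrix proteins whose core is a curved stack of leucine-rich repeats. They bind fibrillar collagen and set the diameter and spacing of its fibrils, and they bind TGF-beta and several cell surface receptors. In the heart they are made mainly by fibroblasts, and the family is known for its part in scar matrix.

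Sections came from wild-type C57BL/6 mice that had sham surgery or myocardial infarction (MI), made by tying the left anterior descending coronary artery, on postnatal day 1. One transverse section was measured for sham and 1 for MI on day 3, and 1 for sham and 2 for MI on day 7 after surgery. The MI sections lay 200 µm below the suture, and the sham sections at the matching level. The sections were profiled with Visium, whose spots each cover several cells, so that fewer cells of a type and less RNA per cell cannot be told apart. The labels do not name the animals, and a section was taken as the replicate. The paper describes the 2 MI day 7 sections as independent biological replicates and the other 3 sections as 1 biological sample each.

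The sections held 376 to 960 spots with a median of 20842.5 to 53940 raw unique molecular identifiers (UMIs) per spot. Levels are given as CPM, for which the values of each spot were scaled to the same total over the shared genes and then averaged over the spots of a section. MI day 7 replicate 1 stood apart, with the highest median and with 24.7% of its values in mitochondrial genes against 13.8% to 15.8% in the other 4. UMIs here come from the 3′ ends of transcripts and each gene is captured with its own efficiency, so levels are compared between sections and not between genes. Cardiomyocyte markers were present in every section, with summed levels of 32211 to 39046 CPM, and fibroblast markers summed to 2654 to 4693 CPM. Macrophage markers summed to 84.0 and 91.5 CPM in the sham sections and to 853, 143 and 224 CPM in MI day 3 and the 2 MI day 7 sections. Xist was listed at 39.0 CPM in sham day 3 and 48.5 CPM in MI day 7 replicate 1 and was not listed in the other 3, which instead had Ddx3y at 31.6 to 35.6 CPM. At day 3 sex and operation therefore cannot be told apart. Of all 3364 spots, 27 had fewer than 2000 raw UMIs, 14 of them in MI day 3.

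The genes lie in pairs on the mouse genome (GENCODE vM21, build GRCm38). Dcn (chr10:97479609-97518143, plus strand) and Lum (chr10:97565128-97572703, plus strand) are 47.0 kb apart with no coding gene between them. Aspn (chr13:49544443-49567565, plus strand) and Ogn (chr13:49608046-49624501, plus strand) are 40.5 kb apart with Omd between them. Prelp (chr1:133910304-133921414, minus strand) and Fmod (chr1:134037254-134048277, plus strand) are 116 kb apart with no coding gene between them. Bgn (chrX:73483602-73495933, plus strand) stands alone on the X chromosome.

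RefSeq promoter windows (GRCm38.p6), reaching from 250 bases before to 50 after the gene start, were given for 5 of the 7 members. They were searched on both strands for 5 motifs. The TATA box (TATAAA) was in 13.6% of 32851 windows, the GC box (GGGCGG) in 35.7%, the AP-1 motif (TGANTCA) in 7.81%, the SMAD box (CAGACA) in 21.0% and the TEAD motif (GGAATG) in 14.7%. The 250 upstream bases are shown for Bgn and Fmod, whose levels differed most between MI and sham, and for the neighbours Aspn and Ogn, whose section means differed little. Capitals mark the matches.
Bgn, chrX:73483351-73483600, plus strand: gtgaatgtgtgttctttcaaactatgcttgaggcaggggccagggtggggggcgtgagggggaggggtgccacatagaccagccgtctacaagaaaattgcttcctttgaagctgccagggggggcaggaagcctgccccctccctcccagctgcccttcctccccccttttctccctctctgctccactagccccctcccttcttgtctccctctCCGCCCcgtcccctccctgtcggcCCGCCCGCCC
Fmod, chr1:134037004-134037253, plus strand: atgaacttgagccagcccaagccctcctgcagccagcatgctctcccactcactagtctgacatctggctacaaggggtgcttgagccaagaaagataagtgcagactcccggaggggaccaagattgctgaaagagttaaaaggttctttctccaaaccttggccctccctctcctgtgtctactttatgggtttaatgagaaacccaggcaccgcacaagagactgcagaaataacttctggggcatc
Aspn, chr13:49544193-49544442, plus strand: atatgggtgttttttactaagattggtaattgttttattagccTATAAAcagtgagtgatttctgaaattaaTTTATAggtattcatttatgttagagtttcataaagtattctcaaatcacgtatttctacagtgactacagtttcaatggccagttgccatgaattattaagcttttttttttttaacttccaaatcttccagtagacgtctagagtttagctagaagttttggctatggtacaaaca
Ogn, chr13:49607765-49608014, plus strand: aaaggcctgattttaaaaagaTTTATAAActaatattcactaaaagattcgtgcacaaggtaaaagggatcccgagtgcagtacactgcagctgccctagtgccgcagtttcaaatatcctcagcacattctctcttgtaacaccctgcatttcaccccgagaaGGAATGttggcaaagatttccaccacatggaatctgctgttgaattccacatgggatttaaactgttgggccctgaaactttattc
The Bgn window held 3 GC boxes on the opposite strand (CCGCCC as printed), which began 34, 10 and 6 bases before the start, and the last 2 shared 2 bases. Aspn held TATA box letters at -207 and, on the opposite strand, at -178. Ogn held them on both strands at -227 and -229, as 1 overlapping run, and a TEAD motif at -86. Prelp held 2 SMAD boxes, 16 and 26 bases into the gene. None of the 5 motifs was in the Fmod window, which says only that these letters were not there.

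Class I holds Dcn, Bgn and Aspn. Dcn, which carries a chondroitin or dermatan sulfate chain and binds collagen and TGF-beta, had 430 CPM in sham day 3, 398 CPM in MI day 3, 564 CPM in sham day 7 and 666 and 710 CPM in the MI day 7 sections. The 3 day 7 sections were the 3 highest, and sham and MI overlapped. Bgn, its close relative with a pair of such chains, had 137 CPM in sham day 3 and 462 CPM in MI day 3, and then 199 CPM in sham day 7 and 204 and 351 CPM in the MI day 7 sections. All 3 MI sections were above both sham sections for Bgn, but MI day 7 replicate 1 was above sham day 7 by very little. Aspn, a member without the usual chain attachment site that binds collagen and TGF-beta, had 119 CPM in sham day 3, 149 CPM in MI day 3, 129 CPM in sham day 7 and 124 and 130 CPM in the MI day 7 sections. Its MI and sham values overlapped.

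Class II holds Lum, Fmod and Prelp. Lum, a keratan sulfate member that binds fibrillar collagen, had 170 CPM in sham day 3, 229 CPM in MI day 3, 247 CPM in sham day 7 and 312 and 316 CPM in the MI day 7 sections. It was higher in MI than in sham on each day, although MI day 3 lay below sham day 7. Fmod, which guides collagen crosslinking as well as fibril growth, had 1.55 CPM in sham day 3, 6.19 CPM in MI day 3, 0.554 CPM in sham day 7 and 2.63 and 6.56 CPM in the MI day 7 sections. All MI sections were above both sham sections, at levels near the lower limit of detection.

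The Fmod transcript was counted in 5 of 544 spots of sham day 3, as 7 UMIs in all (exact Poisson interval 2.81 to 14.4, counting error only). A single spot held 3 of them, and the section mean was 0.350 CPM without that spot. Values above 0 were in 9 of 960 spots of sham day 7, in 54 of 376 of MI day 3, and in 47 of 693 and 58 of 791 of the MI day 7 sections. Without the highest spot of each section, the means were 5.8 CPM in MI day 3, 0.418 CPM in sham day 7 and 1.78 and 6.29 CPM in MI day 7, so the groups stayed apart. Leaving out those spots was decided after the values were seen.

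Prelp, which anchors basement membranes to the collagen beneath them, had 35.6 CPM in sham day 3, 16.8 CPM in MI day 3, 36.9 CPM in sham day 7 and 36.3 and 33.6 CPM in the MI day 7 sections. The other 4 sections were close together and MI day 3 was lowest. Ogn, a class III member that acts on collagen fibril growth, had 96.7 CPM in sham day 3, 107 CPM in MI day 3, 124 CPM in sham day 7 and 121 and 138 CPM in the MI day 7 sections, with MI and sham overlapping. Of the 12 other SLRP family genes looked up, 4 (Chadl, Ecm2, Podn and Tsku) were in all 5 tables. Ecm2 had 19.5 to 26.8 CPM.

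**Figure D1:**
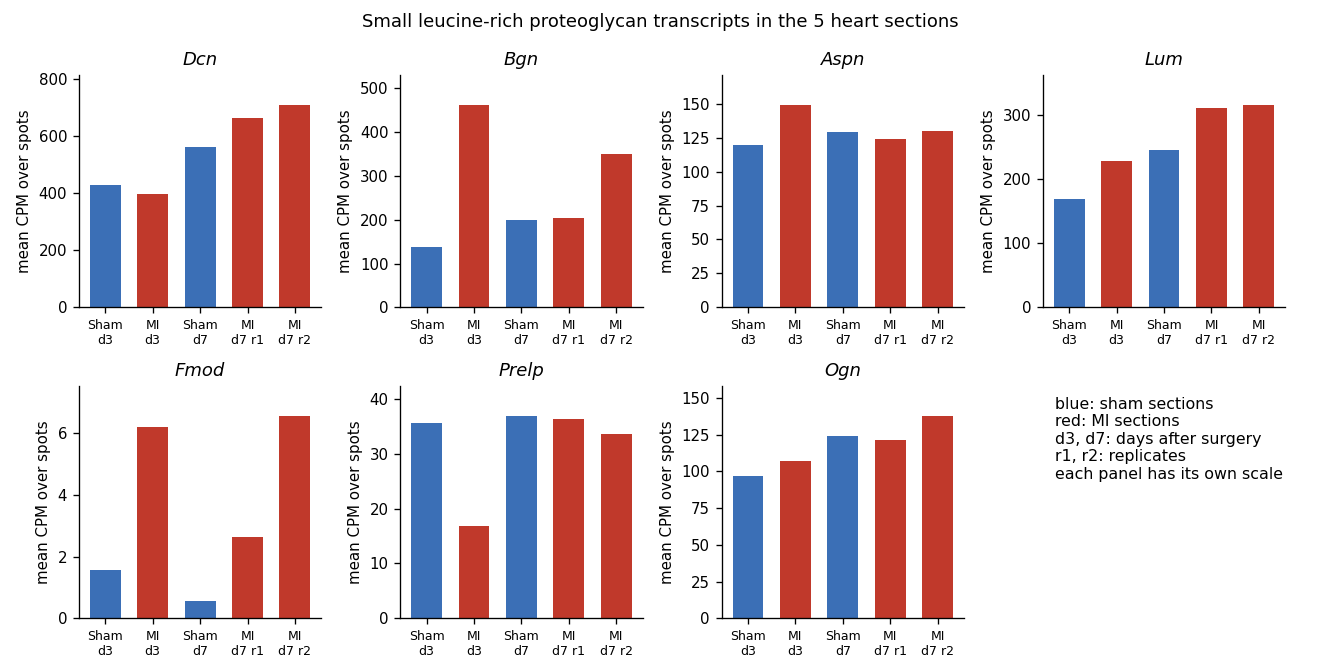
Mean CPM over spots of each member (1 panel per gene, each with its own axis from 0) in the 5 sections, blue for sham and red for MI, with 1 bar per section and no error bar because a section is the replicate. Bgn reached 462 CPM in MI day 3 against 137 CPM in sham day 3, and Prelp was lowest in MI day 3 at 16.8 CPM.

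Whether the infarcted hearts differed from sham hearts was first asked across both days, with day as a covariate (limma on log2(mean CPM + 1), Benjamini-Hochberg adjustment over all genes). None of the 7 members passed the threshold of 0.05, in a fit that called 0.00773% of 12933 genes. The log2 difference was 1.64 ± 0.32 (SE, 3 MI and 2 sham sections) for Fmod (adjusted p = 0.375), 0.99 ± 0.33 for Bgn (adjusted p = 0.521) and 0.38 ± 0.11 for Lum (adjusted p = 0.451). These 3 were the members with an unadjusted p under 0.05. Prelp was at -0.49 ± 0.21, and Dcn, Ogn and Aspn were at 0.11, 0.10 and 0.12. The median over the members was 0.12, beside -0.01 over all genes. Differences on this scale understate the change of low genes such as Fmod. Of the sham sections only sham day 3 reached the minimum of 1 CPM for Fmod, so it passed the filter (2 columns) through the MI sections, and its p-values here and at day 7 are values that support nothing.

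With 5 sections this comparison depended on single ones. Without sham day 7, so that only day 3 was contrasted and the spread came from the 2 MI day 7 sections, Bgn, Fmod and Prelp passed, in a fit that called 319 genes higher and 47 lower of 12870. Without either day 3 section, which leaves the day 7 contrast with 1 sham section, or without MI day 7 replicate 1, no member but Fmod passed. With the sections that list Xist as a covariate, a term added after the values were seen that left 1 residual degree of freedom, Bgn was at 0.87 ± 0.10 (adjusted p = 0.00409) and Fmod at 1.59 ± 0.27 (adjusted p = 0.0212). That fit called 230 genes higher and 47 lower of 12933, so calls rose far beyond the members. MI day 7 replicate 2 and sham day 7 both listed Ddx3y and not Xist, and Bgn was at 351 CPM and 199 CPM there.

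At day 3, with 1 section a group and no test, the log2 ratio of MI to sham was 1.74 for Bgn, 1.49 for Fmod, 0.43 for Lum, 0.32 for Aspn and 0.15 for Ogn. It was -0.11 for Dcn and -1.03 for Prelp, beside a median of 0.03 over all genes. So the neighbours Fmod and Prelp lay on opposite sides of 0 at day 3. Bgn was at the 98.8th percentile of all genes and Prelp at the 0.487th percentile. The values of sham day 3 were raw UMI counts and those of MI day 3 corrected counts. Operation and kind of value therefore cannot be told apart here.

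At day 7, where the fit had 1 mean per group and only the 2 MI sections gave a spread, no member but Fmod was past the threshold. Its difference was 1.75 ± 0.35, with the limit on its p given above. The sham arm was 1 section, which was assumed to vary like the MI sections, and the fit called 0.186% of genes higher. Bgn was at 0.43 ± 0.29, Lum at 0.35 ± 0.24 and Dcn at 0.28 ± 0.26, while Ogn, Prelp and Aspn were at 0.06, -0.08 and -0.02. Fmod was no longer past it with a pseudocount of 5, with no mean-variance trend, with median-of-ratios scaling, without mitochondrial and haemoglobin genes, and with only the spots of at least 2000 raw UMIs. With median-of-ratios scaling and without mitochondrial and haemoglobin genes, no gene at all was past it.

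The difference of the MI effect between the days was tested as a contrast added after the values were seen. It was -1.32 ± 0.45 for Bgn (adjusted p = 0.429) and 0.96 ± 0.33 for Prelp (adjusted p = 0.460). No member was called, in a fit that called 0.425% of genes. In the same contrast 3 of 5 macrophage markers were called, all negative. Of the 4 groups 3 were single sections, with 1 residual degree of freedom. These macrophage marker calls, and every other call of the fit, were lost with median-of-ratios scaling and without mitochondrial and haemoglobin genes.

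Day 7 was then set beside day 3, with the operation as a covariate. The values were positive for Dcn (0.62 ± 0.14, adjusted p = 0.0990), Prelp (0.60 ± 0.21, adjusted p = 0.161), Lum (0.49 ± 0.11, adjusted p = 0.0972) and Ogn (0.31 ± 0.12, adjusted p = 0.173). Bgn, Fmod and Aspn were at -0.22, -0.57 and -0.08. No member was called, and the fit called 0.595% of genes. All genes had a median of -0.18 here, and with median-of-ratios scaling, which moved that median to -0.01, Lum, Dcn and Ogn were called higher at 0.68, 0.81 and 0.50. Among all genes the calls went from 32 higher and 45 lower to 127 higher and 58 lower with that scaling.

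Where in the section the transcripts lay was read from the cell type scores that the deposited metadata give per spot. These scores sum to 1 and were transferred from a single-nucleus reference using the same expression values, so a gene that marks a type differs between classes partly by construction. Spots were classed by their highest score. Fibroblast-dominant (FB-dominant) spots numbered 122, 22, 266, 94 and 94 in sham day 3, MI day 3, sham day 7 and the 2 MI day 7 sections, with mean FB scores of 59.2% to 74.1%. CM1, a cardiomyocyte state, led in 211 to 491 spots, and CM4, the cycling state that the study follows, led in 40 to 86.

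All 7 members were higher in FB-dominant than in CM1-dominant spots, with section as a block, in a fit that called 23.5% of 13405 genes higher. The log2 differences were 2.04 ± 0.15 for Bgn, 1.88 ± 0.43 for Fmod, 1.59 ± 0.14 for Aspn, 1.49 ± 0.11 for Lum, 1.24 ± 0.08 for Dcn, 1.16 ± 0.10 for Ogn and 0.94 ± 0.15 for Prelp (5 sections). The highest adjusted p was 0.00526, for Fmod, whose call was lost with no trend, with no section block and without MI day 7 replicate 1. The members' median was 1.49 and that of all genes 0.18. Among all genes 3154 were called higher and 458 lower, which became 1446 and 1517 with median-of-ratios scaling and 1959 and 771 without mitochondrial and haemoglobin genes, and all 7 members were called higher under both. For every member but Fmod, the FB-dominant mean was above the CM1-dominant mean in all 5 sections, and for Fmod in 4, since it was listed at 0 in the FB-dominant spots of sham day 3. The collagens moved alongside. Of 9 fibrillar collagen genes 8 were tested and 7 were called higher (median 1.57), Col1a1 at 1.73 and Col3a1 at 1.61. Markers of other cell types were called higher as well, 4 of 4 endocardial (median 1.75), 5 of 5 macrophage and 4 of 5 mural markers, and their part in the members' values was not tested.

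**Figure D2:**
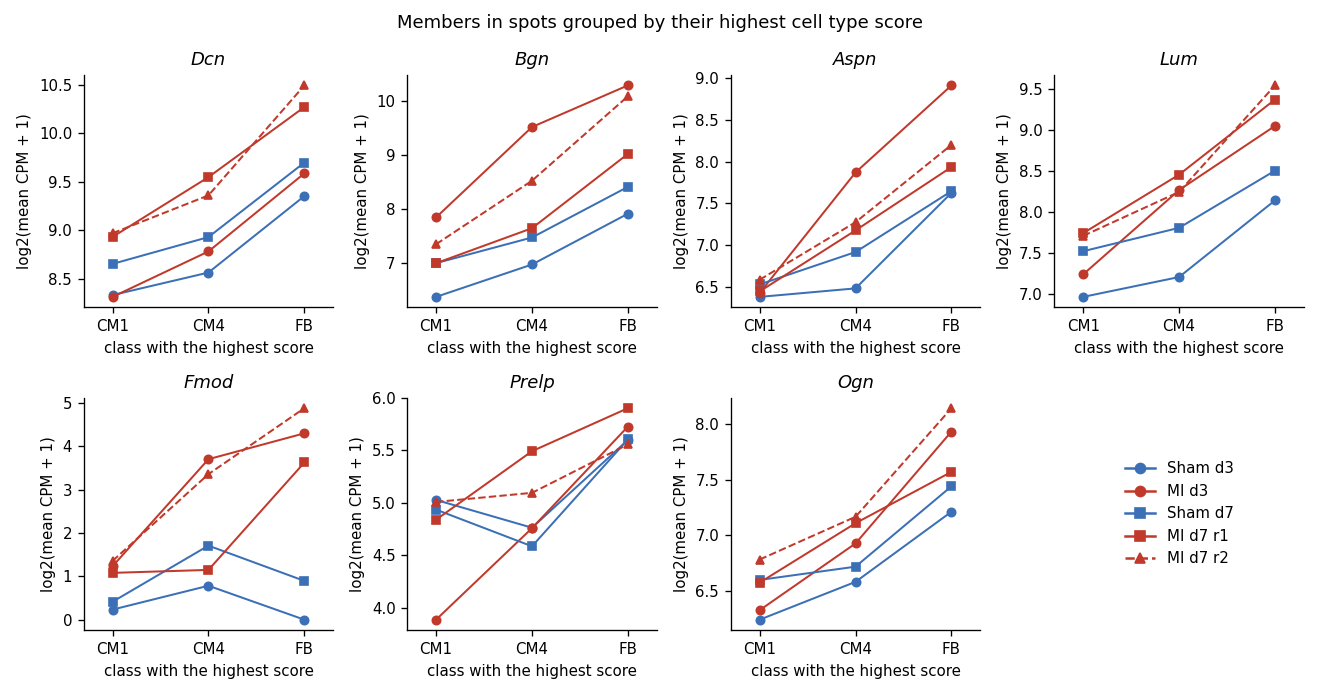
log2(mean CPM + 1) of each member in the spots whose highest score was CM1, CM4 or FB, joined by a line per section, blue for sham and red for MI. Lines of Bgn, Lum and Fmod fanned out towards the FB class, where the 3 MI sections were above both sham sections, and the Prelp lines met there.

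In CM4-dominant spots 5 members were called higher than in CM1-dominant spots, in a fit that called 1.09% of genes higher. These were Bgn (0.92 ± 0.12, adjusted p = 0.000400), Aspn (0.67 ± 0.13), Lum (0.56 ± 0.10), Dcn (0.40 ± 0.08) and Ogn (0.40 ± 0.09, adjusted p = 0.0351). Fmod was at 1.28 ± 0.33 (adjusted p = 0.0617) and Prelp at 0.20 ± 0.16 (adjusted p = 0.690). Fibroblast markers were called higher in the same contrast for 4 of 5, with a median of 0.70, macrophage markers for 2 of 5 and mural markers for 2 of 5. No marker of the other types was called. All 5 blood markers were positive, and all 5 cardiomyocyte and all 5 endothelial markers were negative. The part of these markers in the result was not tested. Among all genes 145 were called higher and 8 lower, which became 119 and 55 with median-of-ratios scaling. No member was called with no section block or with no mean-variance trend, fits in which 0 of 13285 genes were called. Without either MI day 7 section 3 (Aspn, Bgn and Lum) were called.

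Whether MI and sham differed with the score class held the same was asked in the FB-dominant spots, across days. Bgn and Lum were called higher in MI, in a fit that called 0.588% of 13266 genes higher. Fmod was past the threshold too, but it entered the fit only through the MI sections and is described apart. Bgn had 239 CPM in sham day 3, 1253 CPM in MI day 3, 338 CPM in sham day 7 and 518 and 1089 CPM in the MI day 7 sections. Its log2 difference was 1.68 ± 0.32 (adjusted p = 0.0435), and all MI sections were above both sham sections. Lum had 281, 529, 362, 662 and 746 CPM in the same order, with a difference of 0.93 ± 0.17 (adjusted p = 0.0371) and no overlap.

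The Fmod values in FB-dominant spots were 0 CPM in sham day 3, 18.7 CPM in MI day 3, 0.859 CPM in sham day 7 and 11.3 and 28.4 CPM in the MI day 7 sections. In MI day 7 replicate 1 a single spot held 32 of the 57 corrected counts summed over these spots. In sham day 3 none of 122 FB-dominant spots held a Fmod UMI, which allows up to 2.46% of such spots to hold a UMI and a summed level of up to 1.28 CPM (3 counts over these spots). It sets no limit on the spots that express the gene. In MI day 3 it was in 8 of 22 such spots, in MI day 7 in 17 of 94 and 23 of 94, and in sham day 7 in 4 of 266. Both sham sections were under the minimum of 1 CPM, so Fmod passed the filter only through the group where it was high, and its p is not read as support. The fitted difference was 3.76 ± 0.45. That size depends on the pseudocount, because 1 section was at 0, and it was 2.10 ± 0.30 with a pseudocount of 5.

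The other 4 members were not called in FB-dominant spots. Aspn had 196, 482, 199, 244 and 293 CPM in the same order of sections (0.79 ± 0.21, adjusted p = 0.125). Ogn had 147, 243, 173, 189 and 282 CPM (0.55 ± 0.19, adjusted p = 0.255), and Dcn had 653, 768, 829, 1233 and 1439 CPM (0.49 ± 0.20, adjusted p = 0.326). For Aspn and Ogn the MI values were still above both sham values, and for Dcn MI day 3 lay below sham day 7. Prelp had 47.5, 52.0, 47.7, 58.9 and 46.1 CPM (0.13 ± 0.19, adjusted p = 0.819) and overlapped. The members' median was 0.79 and that of all genes 0.03.

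**Figure D3:**
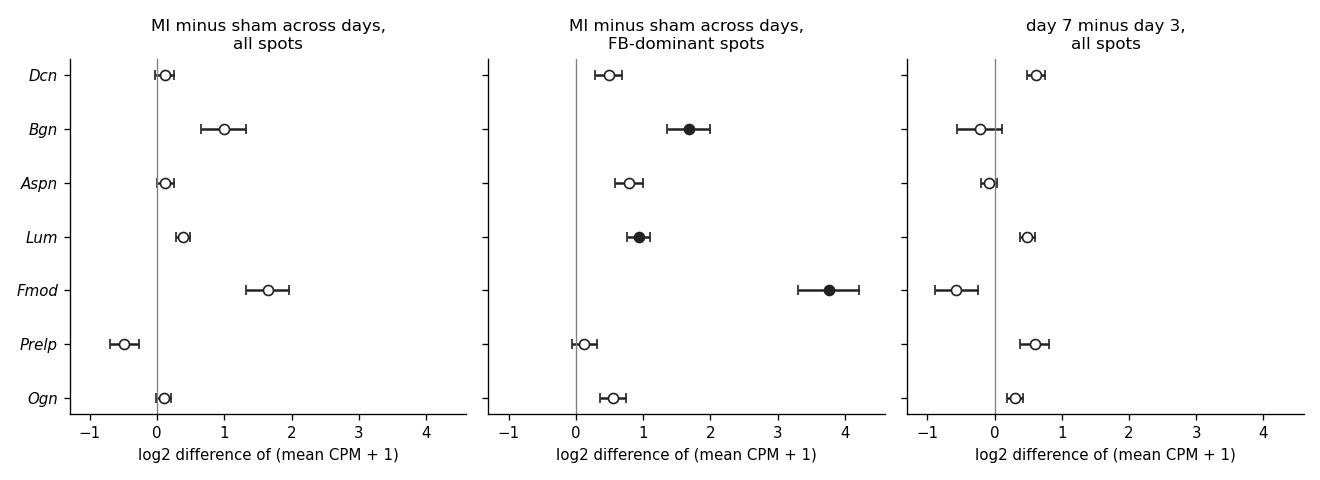
log2 difference of mean CPM + 1 (point) with its standard error (bar) for each member in 3 limma comparisons, where filled points have an adjusted p under 0.05. Filled points are Bgn and Lum in FB-dominant spots, at 1.68 and 0.93, and Fmod at 3.76, which passed the filter on low values there only through the MI sections.

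These calls moved with single sections. Without MI day 7 replicate 2 or with no trend none was called, without either day 3 section or with a pseudocount of 5 Fmod alone, and without MI day 7 replicate 1 all but Dcn and Prelp. The last of these fits called 539 genes higher and 98 lower of 13159, against 78 and 1 with all sections. Neither the fit without MI day 7 replicate 2 nor the fit with no trend called any gene. With a pseudocount of 5, 30 genes were called higher and 0 lower of 13266. Without sham day 7 the calls were Aspn, Bgn and Fmod, among 483 genes higher and 217 lower of 13169, and with no filter on low values Bgn was lost. Macrophage markers differed in the same spots and the same direction, with 4 of 5 called higher (median 2.02) and summed levels of 101 and 114 CPM in sham against 1515, 206 and 449 CPM in MI, with none of them at 0. Fibroblast markers also pointed up, with a median of 0.80 and none of 5 called, and summed to 4168 and 4749 CPM in sham against 6942, 7479 and 12064 CPM in MI. The part of either in the SLRP values was not tested. The macrophage-dominant spots held Bgn at 1218 CPM in MI day 3 but at 159 CPM in MI day 7 replicate 1 and at 143 and 148 CPM in sham day 3 and day 7. MI day 7 replicate 2 had fewer than 20 such spots. Lum was at 523, 338, 174 and 226 CPM there, and Fmod at 38.5, 0, 0 and 0.645 CPM, in the same order.

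Other genes of SLRP biology were counted by list in the FB-dominant spots, beside the 0.588% of all genes called higher there. Of 12 SLRP receptor genes 1 was called higher in MI, the endocytic receptor Lrp1 (1.00 ± 0.20). Of 12 genes of TGF-beta ligands, receptors and latency proteins 1 was called, Ltbp3 (1.27 ± 0.21), which holds the latent ligand in the matrix, and of 8 tested proteases 1, the gelatinase Mmp2 (1.10 ± 0.18). Of 16 collagen assembly and crosslink genes 1 was called, the procollagen protease Adamts2 (1.59 ± 0.25). None of the 21 tested chondroitin and dermatan sulfate chain enzymes, 7 keratan sulfate enzymes, 8 fibrillar collagens or 4 other SLRP genes was called, although all 8 collagens were positive with a median of 1.01. Of 3 tested tendon or valve markers, Thbs4 was called higher (1.96) and Scx was at -0.13 ± 0.37. Cilp was at 2.97, but it reached 1 CPM in only 1 sham section and passed the filter through the MI sections, as Fmod did. The calls named here were lost with no trend and without MI day 7 replicate 2, fits in which no gene at all was called.

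Across the spots of a section, each member's CPM was set against the FB score (Spearman rho, a description with no p, since spots share a library and CPM and scores come from the same counts). The correlation was 0.421 to 0.672 for Dcn, 0.488 to 0.696 for Bgn, 0.520 to 0.699 for Lum, 0.387 to 0.586 for Aspn and 0.353 to 0.461 for Ogn. It was 0.123 to 0.232 for Prelp and 0.0151 to 0.286 for Fmod. In the tenth of spots with the most Bgn, 55.6% to 78.1% were FB-dominant in 4 sections, while in MI day 3 that share was 34.2% and macrophage-dominant spots made up another 34.2%.

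With the CM4 score the sign of rho differed between the operations. For Dcn, rho was -0.201 in sham day 3, 0.243 in MI day 3, -0.247 in sham day 7 and 0.493 and 0.0713 in the MI day 7 sections. For Bgn the values were -0.100, 0.485, -0.130, 0.383 and 0.200, and for Lum they were -0.146, 0.418, -0.196, 0.508 and 0.124. Aspn and Ogn were likewise negative in both sham sections and positive in the 3 MI sections, although Ogn was at 0.00901 in MI day 7 replicate 2.

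Fmod was positive everywhere, and Prelp was positive in MI except at -0.0298 in MI day 7 replicate 2. For all 7 members the MI values lay above the sham values, and how many of all genes do the same was not counted. An exact two-sided permutation test over the sections gave p = 0.2 for each member, the smallest that 3 against 2 sections allow. The FB and CM4 scores themselves had rho of -0.185 and -0.294 in sham, against 0.653, 0.458 and 0.228 in MI. Partial values were chosen after the values were seen. Given the macrophage score MI lay above sham for 6 members, all but Fmod, and given the FB score for 3, again with no count over all genes. The values given the FB score in MI day 3 and the 2 MI day 7 sections were 0.0567, 0.174 and 0.0866 for Bgn against -0.0115 and 0.0279 in sham.

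**Figure D4:**
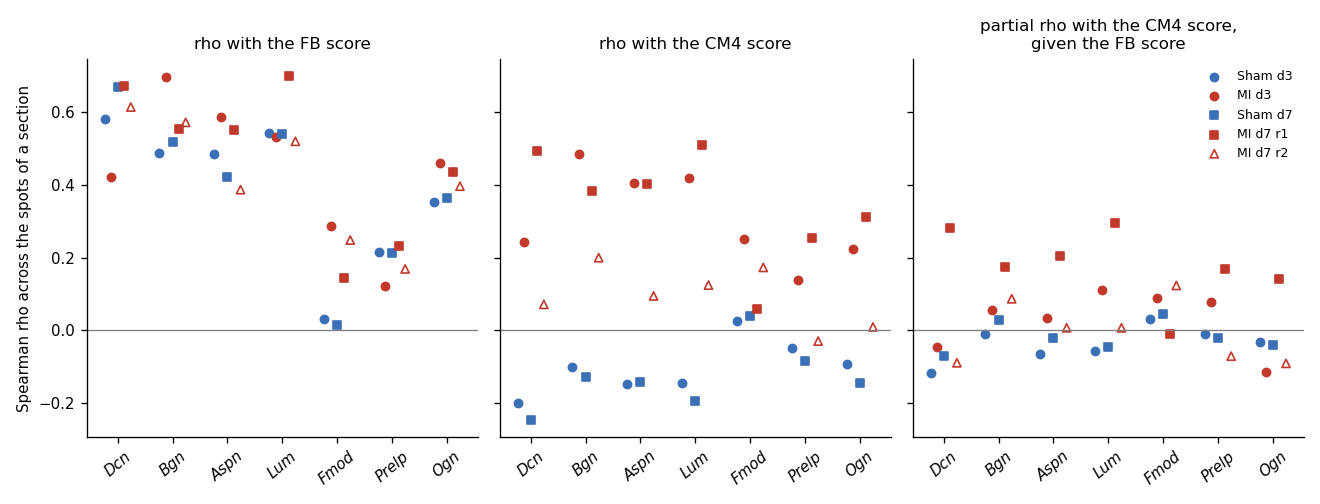
Spearman rho across the spots of each section between a member's CPM and the FB score (left), the CM4 score (middle) and the CM4 score given the FB score (right), with 1 point per section, blue for sham and red for MI. In the middle panel the MI points lay above the sham points for every member, and on the right they did so for Bgn, Aspn and Lum.

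Moran's I is near 0 for scattered values and near 1 for smooth patches. It was 0.101 and 0.158 for Bgn in sham against 0.631, 0.367 and 0.303 in MI. In sham it was 0.155 and 0.322 for Dcn but 0.0544 and 0.0601 for Ogn, 0.0882 and 0.0350 for Fmod and 0.130 and 0.0409 for Prelp. Spots next to a CM4-dominant spot had more Bgn than spots elsewhere in all 5 sections, by log2 0.45 and 0.37 in sham day 3 and day 7, 1.30 in MI day 3 and 0.71 and 0.77 in the MI day 7 sections. For all 7 members this difference was larger in every MI section than in both sham sections (exact permutation p = 0.2, the smallest possible). For Prelp this held by very little, at 0.193 in MI day 7 replicate 2 against 0.188 in sham day 7. How many of all genes do the same was not counted. The mean FB score of the spots next to CM4 was 17.6%, 22.4% and 22.7% in MI against 3.31%, 8.68% and 9.01% elsewhere. In sham it was 24.7% and 34.5% against 19.5% and 23.3%. The mean macrophage score was 16.5% next to CM4 against 1.97% elsewhere in MI day 3, where the Bgn difference was largest of the 5 sections, and 8.58% and 10.1% against 4.35% and 6.31% in sham. In the MI day 7 sections it was 3.81% and 0.999% against 4.46% and 1.85%. The part of either score in the difference was not tested.

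**Figure D5:**
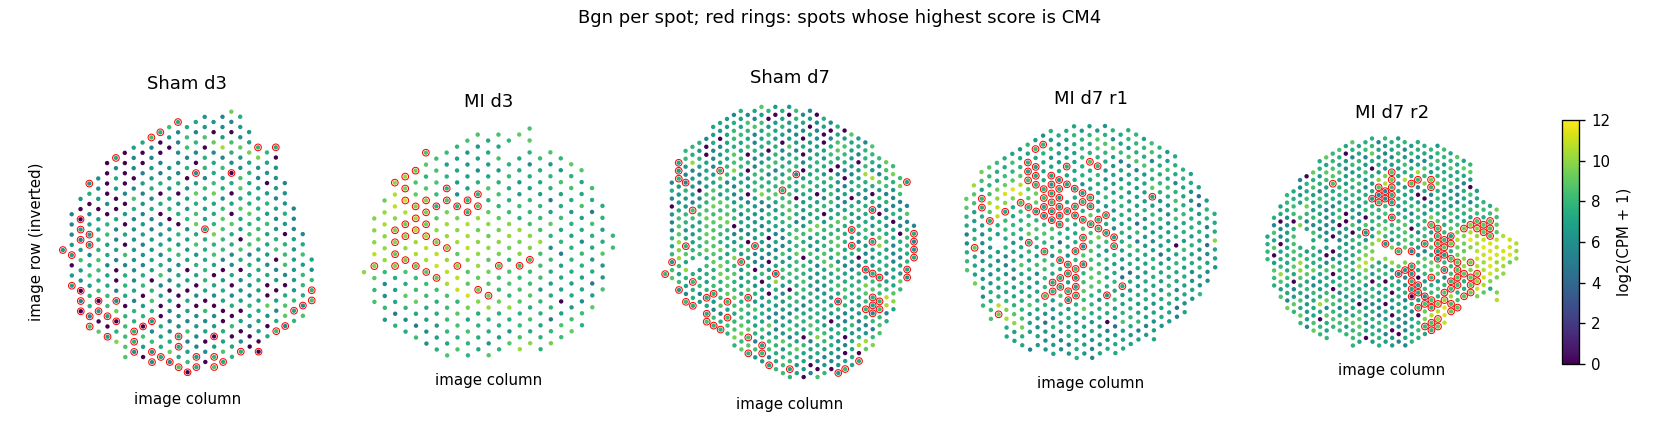
Bgn as log2(CPM + 1) per spot in the 5 sections, drawn at the spots' image positions with 1 colour scale, for spots with at least 2000 raw UMIs and more than 1 neighbour; red rings mark CM4-dominant spots. Of the ringed spots, 57.1% and 42.1% lay at the edge (fewer than 6 neighbours) in sham day 3 and day 7, against 12.5%, 6.58% and 13.1% in MI day 3 and the MI day 7 sections.

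Aspn and Prelp were lower at the edge of the section, in spots with fewer than 6 neighbours, than in its interior in all 5 sections. The log2 difference, leaving out shallow and isolated spots, was -0.44 to -0.97 for Aspn and -0.23 to -1.14 for Prelp. Bgn, Dcn, Lum and Ogn had edge values on both sides of 0 among the sections. Fmod was higher at the edge in all 5 with all spots, but was at -0.06 in sham day 7 without those spots.

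Among themselves, Dcn and Lum went together most, with a mean rho over the 5 sections of 0.596 (lowest 0.508, highest 0.750). The neighbours Ogn and Aspn had 0.334 (0.172 to 0.460), less than Ogn had with Dcn (0.405), and the neighbours Fmod and Prelp had -0.0228 (-0.0894 to 0.0575). Among 5843 candidate genes, members left out, the 3 most like Dcn were Col3a1, Postn and Col1a2 (mean rho 0.624, 0.591 and 0.562), and the same 3 led for Lum (0.584, 0.575 and 0.548) and Ogn (0.440, 0.437 and 0.394). Bgn was most like Col3a1, Col1a2 and Col1a1 (0.616, 0.614 and 0.588). Aspn was most like Postn, Fstl1 and Fbn1 (0.513, 0.464 and 0.458), and for Fmod and Prelp no gene reached a mean rho of 0.3.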

How the data were processed

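The authors aligned Visium reads to mm10/GRCm38 with Space Ranger and processed spots in Seurat with sctransform. The deposited table of sham day 3 holds raw UMI counts. The other 4 hold sctransform-corrected counts, a score rounded to whole numbers, so no count test was used. The deposited metadata give cell type scores per spot as a fraction. Each spot was scaled to CPM over the shared genes, and spots were averaged per section. Date-like and repeated gene names were left out.

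Section means were tested as log2(CPM + 1) with limma 3.58.1 (R 4.3.3), letting the variance follow the mean. Genes that reached 1 CPM in fewer than 2 columns were dropped. P-values are two-sided and Benjamini-Hochberg adjusted over all genes, with a threshold of 0.05. P-values measure only the spread between sections, in which differences between animals and technical differences cannot be told apart. Residual degrees of freedom were 2 across days, 1 at day 7 and 4 between classes.

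The members were picked by symbol, but they and the gene lists were chosen with earlier results of these data known. All members are named. Other genes are named as a list's called or highest genes, or as the 3 most like a member among genes of at least 20 CPM where mean rho reached 0.3. Alternatives are given below. Of them, sctransform for sham day 3 (0.4.2), the 2000-UMI minimum, the test between days, the Xist term, the partial rho given the FB or macrophage score and the placement without isolated spots were chosen after seeing the data.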

Additional observations from a re-analysis of the deposited data

Results flagged for a closer look

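For 5 members the correlation with the CM4 score was negative in both sham sections and positive in all 3 MI sections. How many of all genes do the same was not counted. The mean rho in MI minus that in sham was 0.493 for Dcn, 0.471 for Bgn, 0.521 for Lum, 0.445 for Aspn and 0.301 for Ogn. An exact two-sided permutation test over the 5 sections gave p = 0.2 for each, which is the smallest p that 3 against 2 sections allow, so the design could not pass a threshold of 0.05. With Pearson correlations of log2(CPM + 1), 4 of the 5 had opposite signs, since Bgn was at 0.0272 in sham day 7.

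Given the FB score, MI lay above sham only for Bgn, Lum and Aspn, and Dcn was at -0.0465, 0.282 and -0.0896 in MI day 3 and the MI day 7 sections against -0.117 and -0.0707 in sham.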

How the results depend on the processing

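With 5 sections and 1 to 4 residual degrees of freedom, calls turned on single sections. Between FB-dominant and CM1-dominant spots 6 or 7 members were called under the alternatives run. In CM4-dominant spots the count of 5 became 0 with no trend and 0 with no section block, where 0 of all 13285 genes were called. It became 3 to 6 over the fits that left out a section. These called from 63 genes higher and 0 lower (without MI day 7 replicate 2) to 279 and 21 (without sham day 3). MI minus sham across days went from 0 to 2 with the Xist term and 0 to 3 over the leave-outs. At day 7 it went from 1 to 0 with a pseudocount of 5, median-of-ratios scaling, no mitochondrial and haemoglobin genes, no trend or the 2000-UMI minimum. No gene at all was called there with median-of-ratios scaling or without mitochondrial and haemoglobin genes. Day 7 minus day 3 went from 0 to 3 with median-of-ratios scaling, 1 without mitochondrial and haemoglobin genes, 4 with the Xist term, which called 301 genes higher and 1979 lower against 32 and 45 without it, and 0 to 1 over the leave-outs. In FB-dominant spots the count of 3, Fmod included, became 1 with a pseudocount of 5, 0 with no trend and 0 to 5 over the leave-outs. Over all genes, 78 were called higher in the main fit, 30 with that pseudocount and 0 with no trend. The leave-outs called from 0 higher (without MI day 7 replicate 2) to 539 (without MI day 7 replicate 1). The 7 members whose rho with CM4 was higher in MI became 3 given the FB score and 6 given the macrophage score, with no count made over all genes. The cause was not tested.

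Signs turned for values that were not called. MI minus sham across days ranged over the leave-outs from -0.023 to 0.32 for Aspn and -0.11 to 0.28 for Dcn. At day 7 Aspn went to 0.0093 with median-of-ratios scaling and 0.043 without mitochondrial and haemoglobin genes, and ranged from -0.058 to 0.011 over the leave-outs, as Ogn did from -0.034 to 0.15. Day 7 minus day 3 went to 0.11 for Aspn with median-of-ratios scaling, and ranged over the leave-outs from -0.23 to 0.11 for Aspn and -0.79 to 0.53 for Bgn. Of 673 values under alternatives, which include counts of called members, 596 were classed as unchanged in direction and side of the threshold or in count. At day 7 a fit without either MI section has no residual degrees of freedom, and one without sham day 7 was not possible. The Xist term was run only across days. No paired analysis was possible because the groups share fewer than 2 replicate numbers.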
